A study of Mus musculus with 6 samples.

Results

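The genes described here are 4 adult haemoglobin genes, Hba-a1, Hba-a2, Hbb-bs and Hbb-bt, and 3 other genes of red blood cells, Alas2, Slc4a1 and Ahsp. They were chosen by symbol, and all 7 were found among the 22173 genes listed for each library. RNA of whole mouse retina at postnatal day 17 was sequenced in 6 libraries. The 3 OIR libraries came from wild-type C57BL/6J pups with oxygen-induced retinopathy, which breathed 75% oxygen from postnatal day 7 to day 12 and then room air until day 17. The 3 Control libraries came from wild-type C57BL/6J pups that stayed in room air from day 7 to day 17. The labels do not say whether a library holds 1 animal or several, whether separate animals stand behind the libraries of each group, or whether blood was washed from the vessels before collection. The p-values therefore measure the spread between these libraries, which may in part be technical.

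Adult haemoglobin is built from paired alpha and beta chains (Hba and Hbb genes), each holding a haem group that carries oxygen. Red cell precursors switch on the alpha and beta genes, the haem enzyme gene Alas2 and the membrane gene Slc4a1 together, and young circulating red cells still carry much globin RNA, so globin RNA in a solid tissue is often read as a sign of the blood it contains. The retina is fed by vessels that regress in high oxygen and regrow abnormally after the return to room air. Small amounts of globin RNA have also been described in neurons and other cells outside the blood.

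The alpha genes lie together on chromosome 11 and the beta genes on chromosome 7, and the members of each pair are close copies. In the GENCODE M21 reference the coding sequences of Hba-a1 and Hba-a2 are 429 bases long and differ at 1 base, with a longest identical run of 380 bases. Those of Hbb-bs and Hbb-bt are 444 bases long and also differ at 1 base, with a longest identical run of 416 bases. The coding windows that hold the single difference, in capitals, show why a read from within the coding part can seldom be given to 1 member of a pair. They cover bases 351 to 410 of the alpha and 385 to 444 of the beta coding sequence.
Hba-a1: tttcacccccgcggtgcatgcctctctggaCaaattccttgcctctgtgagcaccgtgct
Hba-a2: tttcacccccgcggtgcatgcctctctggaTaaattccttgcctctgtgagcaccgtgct
Hbb-bs: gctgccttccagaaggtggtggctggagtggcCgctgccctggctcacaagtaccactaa
Hbb-bt: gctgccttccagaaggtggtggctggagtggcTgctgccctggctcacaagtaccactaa
How the authors treated such shared reads is not given in the sources used here, so the split within a pair is uncertain. The sum over a pair does not depend on how shared reads were divided between its members. It does depend on whether such reads were left out or counted for both members. The same holds for the globin sums, shares and ratios given below.

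The DNA before the start sites is shown for 1 alpha gene, both beta genes and Alas2, since these genes are switched on together in red cell precursors. The sequences are the 250 bases before the start, from RefSeq on GRCm38.p6, in which 5 of the 7 genes had an entry. Capitals mark every match, on either strand, to 5 motifs, of which no matches overlap. ATATAA is a form of the TATA box. CCAAT is the letters of the box of that name. CACCC is the core of the box bound by the red cell factor KLF1. AGATAA is a form of the site bound by GATA factors, as is the variant TGATAA. The build used for the deposited values is not given in the sources used here, and the coordinates belong to these reference sequences only.
Hba-a1, chr11:32283422-32283671, plus strand: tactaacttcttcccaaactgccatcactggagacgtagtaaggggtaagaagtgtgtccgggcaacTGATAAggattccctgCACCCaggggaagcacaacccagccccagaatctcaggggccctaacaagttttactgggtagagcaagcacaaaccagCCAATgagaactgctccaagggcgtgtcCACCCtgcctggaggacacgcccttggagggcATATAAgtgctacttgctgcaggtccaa
Hbb-bs, chr7:103827929-103828178, minus strand: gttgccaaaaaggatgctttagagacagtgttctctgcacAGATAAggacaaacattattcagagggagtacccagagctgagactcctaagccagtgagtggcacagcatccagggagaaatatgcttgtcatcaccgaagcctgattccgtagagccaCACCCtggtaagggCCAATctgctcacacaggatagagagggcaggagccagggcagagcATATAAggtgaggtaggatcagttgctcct
Hbb-bt, chr7:103813924-103814173, minus strand: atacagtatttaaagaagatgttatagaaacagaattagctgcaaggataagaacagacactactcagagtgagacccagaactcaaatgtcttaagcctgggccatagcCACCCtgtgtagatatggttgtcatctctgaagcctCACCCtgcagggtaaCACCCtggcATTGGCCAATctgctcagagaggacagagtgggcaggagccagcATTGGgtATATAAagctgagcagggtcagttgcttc
Alas2, chrX:150547167-150547416, plus strand: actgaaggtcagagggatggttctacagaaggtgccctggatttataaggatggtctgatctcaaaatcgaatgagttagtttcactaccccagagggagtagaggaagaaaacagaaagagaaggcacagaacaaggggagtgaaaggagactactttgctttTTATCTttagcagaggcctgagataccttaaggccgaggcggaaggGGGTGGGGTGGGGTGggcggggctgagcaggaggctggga
The window of Hba-a2 shares a run of 247 bases with that of Hba-a1 and is not printed. The first base of the TATA form lay at -28 in Hba-a1, -30 in Hbb-bs and -29 in Hbb-bt, counted back from the start, and the CCAAT box on the same strand began at -88 in Hba-a1, -76 in Hbb-bs and -75 in Hbb-bt. The window of Alas2 held neither, but held 3 matches to the KLF1 core and 1 to the AGATAA form, all read on the other strand. Of 32851 reference windows of this length, 9.10% held the TATA form, 33.8% the CCAAT box, 52.0% the KLF1 core, 9.99% the AGATAA form and 7.94% the other GATA form. The first 3 of these stood together in 1.36% of the windows, and in the windows of all 4 adult globin genes. These matches describe letters and not occupied sites.

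Values were deposited as RPKM, reads per kilobase of gene, scaled to the size of the library, so levels of different genes can be compared per length. Whole reads could be recovered from the steps of the low values, for 98.7% of the 17953 genes above 0 in any library, which gave 35615501 to 38025623 reads per library. The tested set was the 12112 genes with at least 1 RPKM in at least 3 libraries, compared between OIR and Control with limma on log2(RPKM + 1) and a threshold of 0.05 on the Benjamini-Hochberg adjusted p. Of these, 1407 genes (11.6%) were higher and 875 (7.22%) lower in OIR, and these counts became 410 and 198 without OIR 1, 585 and 327 without OIR 3, 646 and 249 without Control 1, and 406 lower without Control 2. Called in either direction were 18.8%, and groups without overlap in either direction were found in 38.7%. With median-of-ratios scaling 1281 were higher and 1313 lower. Retina was checked by 14 markers of rods, cones, Müller glia and inner neurons, which summed to a level from 12618 to 13113 RPKM in OIR and from 10840 to 13398 RPKM in Control. Lens genes made up 2.23% of the summed RPKM in OIR 2 and 21.2% in Control 3, against 0.0605% to 0.242% in the other 4 libraries.

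All 4 adult globin genes rose in OIR, where 11.6% of the tested genes were called higher. Together their level was 138.4, 83.1 and 156.6 RPKM in OIR 1, 2 and 3, against 55.0, 54.2 and 46.5 RPKM in Control 1, 2 and 3. The sums averaged 126.0 ± 38.3 RPKM in OIR and 51.9 ± 4.71 RPKM in Control (SD, n = 3 each), a ratio of 2.43. Each OIR sum lay above each Control sum, and the OIR libraries were the more spread, with OIR 2 the lowest of them. Behind the sums stood 1865 to 3652 reads per OIR library and 1018 to 1264 reads per Control library, or 50.9 to 96.0 RPM in OIR and 28.6 to 34.0 RPM in Control, which is reads scaled by depth.

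Hbb-bs, an adult beta globin gene of C57BL/6J mice, had the highest level of the 7 genes. It was at 83.6, 50.1 and 94.3 RPKM in OIR 1, 2 and 3, against 36.9, 32.8 and 29.4 RPKM in Control 1, 2 and 3. The lowest OIR value was 1.36 times the highest Control value. Its log2 fold change was 1.13 ± 0.266 (SE; 95% interval 0.45 to 1.82, limma adjusted p 0.0468), and with limma-voom on the recovered reads it did not pass, at 1.15 (adjusted p 0.0556). Hbb-bt, the other adult beta gene, was at 9.23, 6.20 and 13.0 RPKM in OIR, against 3.71, 4.71 and 3.43 RPKM in Control. Its groups did not overlap either, and its log2 fold change was 1.04 ± 0.258 (SE; 0.39 to 1.68, limma adjusted p 0.0462).

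Hba-a1, an alpha globin gene, was at 34.9, 19.8 and 37.2 RPKM in OIR 1, 2 and 3, against 11.3, 12.2 and 10.3 RPKM in Control 1, 2 and 3. Its OIR values were all above its Control values, with a log2 fold change of 1.32 ± 0.254 (SE; 0.67 to 1.96, limma adjusted p 0.0266). Hba-a2, the other adult alpha gene, was at 10.7, 6.98 and 12.005 RPKM in OIR, against 3.01, 4.45 and 3.34 RPKM in Control. Its log2 fold change was 1.22 ± 0.205 (SE; 0.73 to 1.72, limma adjusted p 0.0118). In all 4 genes OIR 3 was highest and OIR 2 lowest among the OIR libraries. Groups without overlap, with OIR above, were found in 23.6% of all tested genes.

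**Figure D1:**
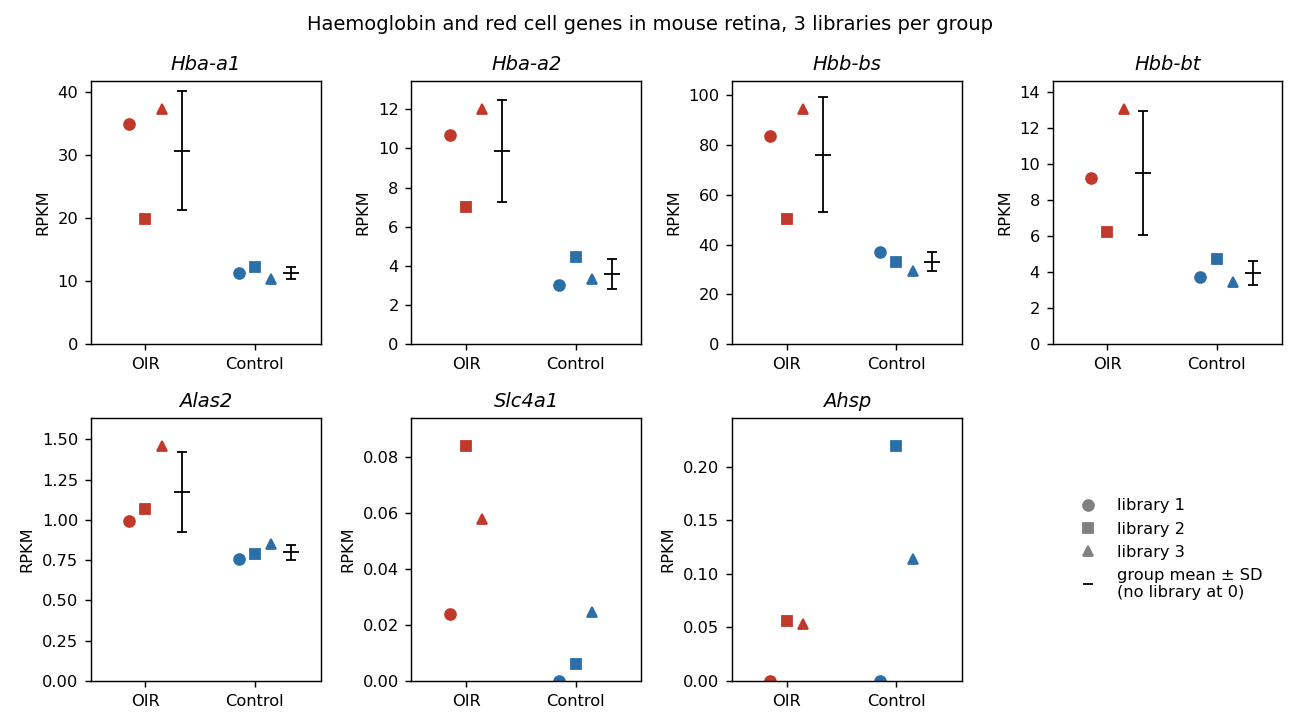
Level in RPKM of the 7 genes in each library, with OIR left of Control; symbols give the library number and black bars the group mean ± SD (n = 3), drawn where no library was at 0. The globin genes and Alas2 have all OIR points above all Control points, while Slc4a1 and Ahsp stay below 0.25 RPKM.

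The calls of the globin genes rested on few libraries. All 4 ended without OIR 1, at limma adjusted p of 0.110 for Hba-a1, 0.0686 for Hba-a2, 0.174 for Hbb-bs and 0.179 for Hbb-bt. For Hba-a1, Hbb-bt and Hbb-bs the call was also lost without Control 1, at 0.102, 0.154 and 0.118, and without Control 2, at 0.0872, 0.0936 and 0.142. Those of Hbb-bs and Hbb-bt ended without Control 3, at 0.0793 and 0.0749, and those of Hba-a1 and Hbb-bs without OIR 3, at 0.0740 and 0.111. With OIR 2 and Control 3, the libraries of most lens RNA in their groups, both left out, the log2 fold changes were 1.21 to 1.54 and the ratio of the summed levels was 2.70.

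The alpha genes took 30.1%, 29.5% and 28.7% of the globin reads in OIR 1, 2 and 3, against 23.7%, 28.04% and 26.8% in Control 1, 2 and 3. Every OIR share lay above every Control share, and Control 1 stood lowest, with a 95% Wilson interval of 21.4% to 26.1%, against 27.3% to 30.2% for OIR 3, the lowest OIR share. The intervals of OIR 2 (27.5% to 31.6%) and Control 2 (25.6% to 30.6%) overlapped, and no test was made of the share. These intervals cover counting error only.

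Within the alpha pair, Hba-a1 held 73.8% to 76.5% of the reads in OIR libraries and 73.1% to 78.9% in Control libraries. Within the beta pair, Hbb-bs held 88.0% to 90.2% in OIR and 87.6% to 91.0% in Control. Both ranges overlapped between the groups, as the plot of read shares shows, although the assignment of shared reads within a pair is unknown.

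**Figure D2:**
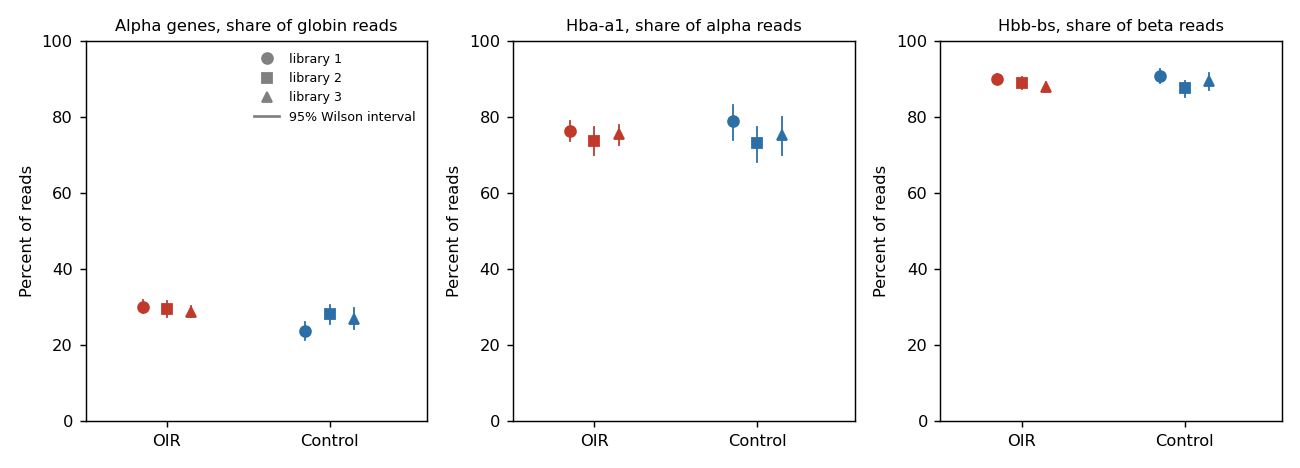
Shares of reads in percent for each library, OIR left of Control, with vertical lines for 95% Wilson intervals: the alpha genes among all globin reads, Hba-a1 among alpha reads and Hbb-bs among beta reads. The alpha share is 28.7% to 30.1% in OIR and 23.7% to 28.04% in Control, and the other shares overlap between the groups.

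The other 3 genes were far lower, and none reached the minimum for testing, so their results come from the limma fit with no filter, over 17953 genes, of which 6.73% were called higher and 2.95% lower. None of the 3 passed. Alas2, which encodes the first enzyme of haem synthesis in red cell precursors, was at 0.992, 1.07 and 1.46 RPKM in OIR 1, 2 and 3, against 0.759, 0.788 and 0.849 RPKM in Control 1, 2 and 3. Its groups did not overlap, as in 20.5% of these genes with OIR above, and its order differed from that of the globins, with OIR 1 the lowest OIR library. The log2 fold change was 0.27 (95% interval 0.05 to 0.49, adjusted p 0.113), on a scale that understates the change of low genes. From 265 reads in OIR and 177 in Control, the ratio after scaling by depth was 1.47, with a counting interval of 1.21 to 1.79.

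Slc4a1 encodes band 3, the anion exchanger that is the main protein of the red cell membrane. It had 4, 14 and 10 reads in OIR 1, 2 and 3, against 0, 1 and 4 reads in Control 1, 2 and 3. OIR 1 and Control 3 had the same number of reads, and in RPKM, at 0.0238 in OIR 1 and 0.0247 in Control 3, the groups overlapped. The ratio of the summed reads after the same scaling was 5.51 with a counting interval of 2.10 to 18.3 that leaves out the spread between libraries, and the fit gave an adjusted p of 0.188. Among OIR libraries the highest value was in OIR 2, where the globins were lowest.

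Ahsp, the gene of the protein that binds and stabilises free alpha chains in red cell precursors, had 0, 1 and 1 reads in OIR 1, 2 and 3, against 0, 4 and 2 reads in Control 1, 2 and 3. A count of 0 allows up to 3 reads in a library, so no difference could be detected at this depth. The ratio was 0.328 with a counting interval of 0.0324 to 1.84 (adjusted p 0.415 in the fit with no filter).

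The summed globin level was 139.5, 77.7 and 107.3 times the level of Alas2 in OIR 1, 2 and 3, against 72.4, 68.7 and 54.8 times in Control 1, 2 and 3. Every OIR ratio lay above every Control ratio, though OIR 2 was close to Control 1. Alas2 thus had a smaller ratio between the groups, 1.47 on plain RPKM means, than any adult globin gene, at 2.30 to 2.75. That difference between genes was not tested.

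Of 73 genes on the red cell lists, the 7 genes above included, 40 were tested, and 9 were higher and 3 lower in OIR, where 11.6% of all tested genes were higher and 7.22% lower. The median log2 fold change of the 40 was 0.05, and that of all tested genes 0.03. Without the globins, 5 of the remaining 36 tested genes were higher. The count of higher genes fell to 1 without OIR 1, 3 without Control 1 and 5 without OIR 3.

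Of the embryonic and minor globin genes, 6 could be looked up, none reached the minimum for testing, and all 6 are named with their values known. Hba-x, Hbb-y, Hbb-bh1 and Hbb-bh2, which make embryonic or fetal chains, were at 0 in all 6 libraries. Hbq1a was at 0 to 0.0435 RPKM in OIR and at 0 to 0.325 RPKM in Control, and Hbq1b was at 0 in OIR and at 0 to 0.216 RPKM in Control. Together the embryonic and minor genes summed to at most 0.0435 RPKM in OIR and 0.325 RPKM in Control.

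Of 15 red cell membrane and blood group genes, 6 were tested, and 2 were lower, Ank1 and Add2, with a median log2 fold change over the list of -0.25. Both encode proteins of the membrane skeleton that neurons also make. Ank1 was at 5.61 ± 0.606 RPKM in OIR and 7.22 ± 0.698 RPKM in Control (adjusted p 0.0405), and Add2 at 12.5 ± 1.61 RPKM in OIR and 15.4 ± 0.477 RPKM in Control (adjusted p 0.0453). Both calls were lost when any of OIR 1, OIR 3, Control 1 and Control 2 was left out, with adjusted p from 0.0873 to 0.194, and that of Add2 without Control 3, at 0.0727. With no filter neither passed, at 0.0809 for Ank1 and 0.0900 for Add2. Of the 15 genes 13 were above 0 in any library, and those under the minimum for testing were picked out with their values known. Rhag and Kel, which encode blood group proteins, were at 0 in every library. Epb42, the gene of a protein that ties band 3 to the membrane skeleton, was at 0.0326, 0.00658 and 0.0380 RPKM in OIR 1, 2 and 3, and at 0 in each Control library. Gypc, the gene of glycophorin C, was at 0.360, 0.551 and 1.0003 RPKM in OIR 1, 2 and 3, against 0.136, 0.136 and 0.309 RPKM in Control 1, 2 and 3. Both had every OIR value above every Control value, as did 20.5% of all genes above 0.

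Of 8 tested haem synthesis enzymes, 2 were higher and 6 did not pass (list median 0.10). Ppox, the gene of the enzyme before the last step, was at 18.3 ± 1.26 RPKM in OIR and 13.5 ± 1.30 RPKM in Control (adjusted p 0.00827), and this call ended without OIR 1, at 0.0503. All cells make haem, so these genes are not restricted to red cells.

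Of 5 iron uptake genes none passed, and 1 passed at an unadjusted p under 0.05. Slc25a37 encodes mitoferrin 1, which brings iron into mitochondria of red cell precursors, and was at 19.5, 10.5 and 21.7 RPKM in OIR 1, 2 and 3, against 7.32, 7.93 and 6.94 RPKM in Control 1, 2 and 3. Its groups did not overlap, with a log2 fold change of 1.06 ± 0.278 (SE; 0.35 to 1.77, adjusted p 0.0583). Tfrc, the transferrin receptor gene, was at 21.8 ± 0.372 RPKM in OIR and 19.9 ± 1.72 RPKM in Control (adjusted p 0.234).

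Of 10 genes of erythroid transcription and erythropoietin sensing, 4 were tested and 2 were higher. Lmo2, which encodes an adaptor of the GATA1 complex and is also made by endothelial cells, was at 3.52 ± 0.203 RPKM in OIR and 2.16 ± 0.0504 RPKM in Control (adjusted p 0.00281). Zfpm1, the gene of the GATA1 partner FOG1, was at 7.49 ± 0.157 RPKM in OIR and 5.69 ± 0.863 RPKM in Control (adjusted p 0.0273), and its call ended without each single library other than OIR 2 and Control 2, at 0.0664 to 0.107, without OIR 2 and Control 3 together, at 0.0507, and with no filter, at 0.0623. Members under the minimum for testing were again picked out with their values known. Among the factors, Gata1 was at most 0.0131 RPKM, Gfi1b was at 0, and Klf1 was at 0.111 to 0.165 RPKM in OIR and 0.0914 to 0.152 RPKM in Control. Tal1, a factor of blood and endothelial precursors, was at 0.180, 0.203 and 0.144 RPKM in OIR 1, 2 and 3, against 0.0630, 0.0474 and 0.0274 RPKM in Control 1, 2 and 3. Epor, the gene of the erythropoietin receptor, was at 0.384, 0.254 and 0.661 RPKM in OIR 1, 2 and 3, against 0.0294, 0.206 and 0.230 RPKM in Control 1, 2 and 3. For Tal1 and Epor every OIR value lay above every Control value, as in 20.5% of all genes above 0. Bcl11a, a tested factor also picked out with its values known, had every OIR value below every Control value. It was at 1.46 ± 0.0447 RPKM in OIR and 1.81 ± 0.193 RPKM in Control (limma adjusted p 0.150). Of all tested genes, 15% had their OIR values all below.

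Of 13 tested red cell enzyme and reticulocyte genes, 1 was higher and 1 lower (list median -0.06). The glucose transporter gene Slc2a1, whose protein sits in red cells, barrier vessels and glia, was at 167.2 ± 29.2 RPKM in OIR and 113.9 ± 2.89 RPKM in Control (adjusted p 0.0113), a call that ended without OIR 1 or Control 1, at 0.0566 and 0.0502. The carbonic anhydrase gene Car2, also a gene of Müller glia, was at 260.1 ± 19.5 RPKM in OIR and 322.6 ± 30.7 RPKM in Control (adjusted p 0.0336), and its call ended without OIR 1, OIR 3, Control 1 or Control 2, at 0.108 to 0.147, and with no filter, at 0.0735.

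**Figure D3:**
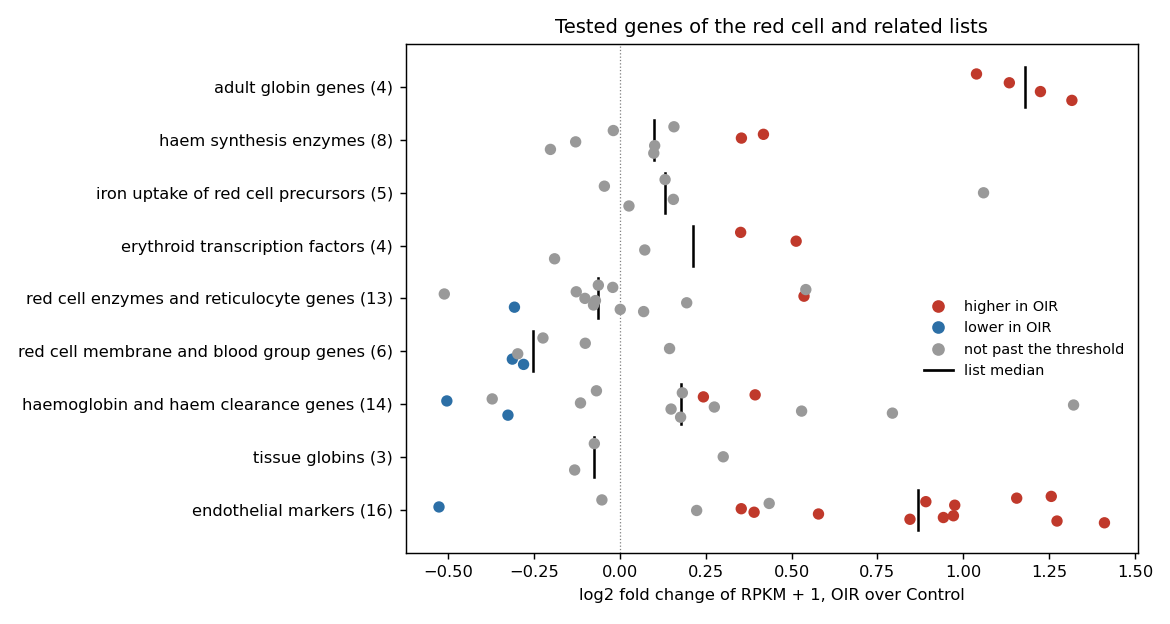
Log2 fold change of RPKM + 1, OIR over Control, for each tested gene of 9 lists, with the number tested in brackets; colour gives the limma call and black lines the list median. The 4 adult globins lie between 1.04 and 1.32, while most other red cell genes lie near 0.

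Of 14 tested genes of haemoglobin and haem clearance, 2 were higher and 2 lower (list median 0.18). Nfe2l2, the gene of the stress factor NRF2, was at 14.0 ± 1.88 RPKM in OIR and 10.4 ± 1.20 RPKM in Control (adjusted p 0.0284), and Lrp1, the gene of the receptor that takes up haem bound to haemopexin, at 15.8 ± 0.843 RPKM in OIR and 13.2 ± 1.04 RPKM in Control (adjusted p 0.0475). Hp, which encodes the plasma protein haptoglobin that binds free haemoglobin, was at 5.20 ± 0.899 RPKM in OIR and 7.81 ± 1.47 RPKM in Control (adjusted p 0.0320), and Blvra, the gene of a biliverdin reductase, at 6.14 ± 0.641 RPKM in OIR and 7.97 ± 1.08 RPKM in Control (adjusted p 0.0463). All 4 calls ended without OIR 1 or Control 1, at 0.0928 to 0.163, those of Nfe2l2, Lrp1 and Blvra also without OIR 3 or Control 3, at 0.0844 to 0.192, and that of Hp without Control 2, at 0.0756. With no filter none of the 4 passed, at 0.0739 to 0.0979. The call of Blvra was also lost with median-of-ratios scaling, at 0.0548, and with limma-voom, at 0.0648. Hmox1, the haem oxygenase gene that breaks down haem, was picked out with its values known, and was at 35.2, 12.6 and 49.6 RPKM in OIR 1, 2 and 3, against 2.01, 2.28 and 160.1 RPKM in Control 1, 2 and 3. The groups overlapped through Control 3, the library with most lens RNA, and Hmox1 did not pass (adjusted p 0.689).

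The globins that work inside tissues did not pass. Cygb, the gene of cytoglobin, was at 61.7 ± 4.41 RPKM in OIR and 67.8 ± 5.97 RPKM in Control (adjusted p 0.281), with an interval of the log2 difference from -0.31 to 0.05. Ngb, the gene of neuroglobin, an oxygen-binding protein of neurons, was at 1.36 ± 0.0905 RPKM in OIR and 1.49 ± 0.151 RPKM in Control (adjusted p 0.594).

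Markers of vessels and of other blood components were set beside the globins. Of 16 endothelial markers, all tested, 12 were higher and 1 lower in OIR, with a median log2 fold change over the list of 0.87, and their part in the globin result was not tested. Their summed level was 144.0, 135.0 and 135.9 RPKM in OIR 1, 2 and 3, against 82.9, 84.3 and 79.1 RPKM in Control 1, 2 and 3. The ratio of the mean sums, OIR over Control, was 1.68, against 2.43 for the globins. Single markers, named here with their values known, ran from 0.631 (Ly6c1) to 3.57 (Vwf), on both sides of the globin ratio. Kdr, the marker of highest level, was at 1.29. A ratio of globins to this sum therefore depends on which markers are summed. The highest OIR sum was 1.07 times the lowest for these markers and 1.88 times the lowest for the globins, and OIR 2 and OIR 3, which differed most in globin level, had close endothelial sums. The globin sum was 0.961, 0.615 and 1.15 times the endothelial sum in OIR 1, 2 and 3, against 0.663, 0.643 and 0.587 times in Control 1, 2 and 3. On this scale OIR 2 fell within the Control range, and the groups overlapped. In whole tissue, more red cells and more globin RNA per cell cannot be told apart.

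**Figure D4:**
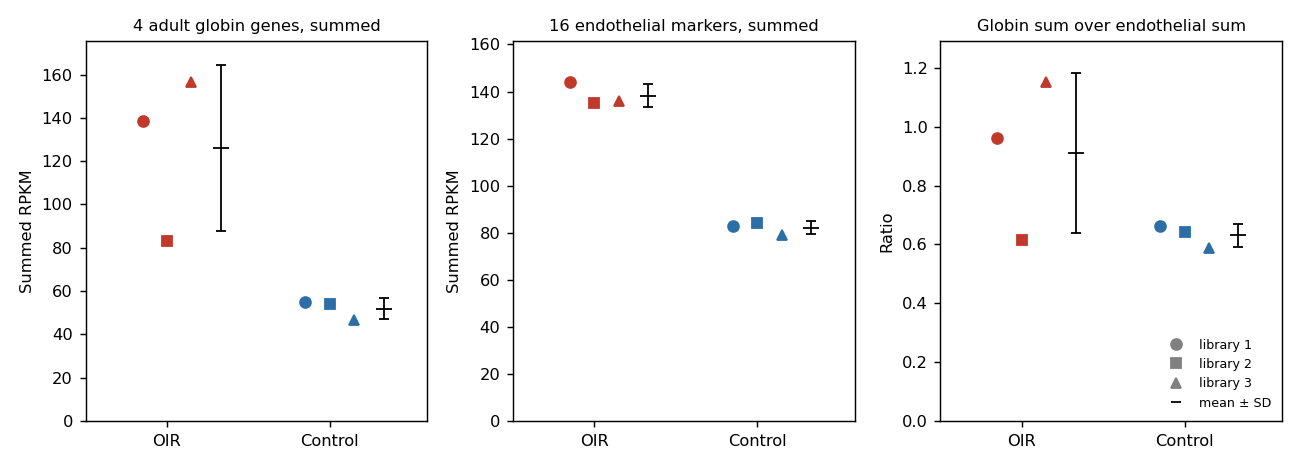
Summed RPKM of the 4 adult globin genes, summed RPKM of 16 endothelial markers and the ratio of the first to the second in each library, OIR left of Control; black bars are the mean ± SD (n = 3). OIR 2 is the lowest OIR library in globin level, at 83.1 RPKM, and lies at 0.615 in the ratio, within the Control range of 0.587 to 0.663.

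Of 10 platelet markers 7 were above 0 in any library and only Gp1bb was tested, at 4.22 ± 0.859 RPKM in OIR and 4.42 ± 0.345 RPKM in Control (adjusted p 0.723). The other markers of blood cells named here were picked out with their values known. Pf4, the gene of platelet factor 4, was at 0.782, 1.16 and 1.30 RPKM in OIR 1, 2 and 3, against 0.229, 0.183 and 0.239 RPKM in Control 1, 2 and 3. Its OIR values were all above its Control values, while Ppbp, Gp6 and Treml1 were at 0 throughout. No neutrophil or lymphocyte marker reached the minimum for testing. The 10 neutrophil markers summed to 0.990, 0.201 and 2.22 RPKM in OIR 1, 2 and 3, against 0.0292, 0.0106 and 0.0819 RPKM in Control 1, 2 and 3. The sums had the same order over the OIR libraries as the globins, but S100a9 was their largest part in OIR 1 and OIR 3. Values this low rest on few reads. S100a9, a gene of a calcium-binding protein abundant in neutrophils, was at 0.568, 0.0521 and 1.51 RPKM in OIR 1, 2 and 3, and its partner S100a8 at 0.276, 0.0697 and 0.335 RPKM. Ngp, a granule protein gene, did not follow that order, at 0.0466, 0.0235 and 0.0227 RPKM in OIR 1, 2 and 3. Nor did Camp, which was above 0 in OIR 2 alone, at 0.0456 RPKM. S100a9, S100a8 and Ngp were at 0 in each Control library, and Ly6g and Cxcr2 were at 0 in all 6 libraries. In the other direction, Elane was at 0.0292 RPKM in Control 1 and Mpo at 0.0106 RPKM in Control 2. Both were at 0 in every OIR library. Ltf averaged 0.00981 RPKM in OIR and 0.0273 RPKM in Control, the latter from Control 3 alone. The lymphocyte markers summed to 0.921 to 1.61 RPKM in OIR and 0.256 to 0.761 RPKM in Control. Cd8a, the gene of a T cell coreceptor chain, was at 0.532 to 0.975 RPKM in OIR and 0.120 to 0.359 RPKM in Control, and Cd79b, the gene of a B cell receptor chain, at 0.171 to 0.222 RPKM in OIR and 0 to 0.0438 RPKM in Control. Neither overlapped between the groups, and Cd3d was at 0 throughout. The part of these cells in the globin result was not tested.

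Of 10 tested genes of plasma proteins made by the liver, Trf was higher and 9 did not pass (list median -0.20). Trf, the gene of the iron carrier transferrin, which the retina also makes, was at 146.6 ± 35.9 RPKM in OIR and 72.9 ± 5.95 RPKM in Control (adjusted p 0.0212), a call that ended without OIR 1, Control 1 or Control 2, at 0.105, 0.0772 and 0.0763. Albumin RNA (Alb), picked out with its values known, stood at 127.1, 118.5 and 158.5 RPKM in OIR 1, 2 and 3, against 199.2, 140.5 and 152.4 RPKM in Control 1, 2 and 3. Its groups overlapped (adjusted p 0.256).

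Among the other tested genes, 8 had the profile over the 6 libraries nearest to the mean of the adult globins. Likeness was the root mean square difference in log2(RPKM + 1) after each gene's mean was taken off, which was 0.0849 to 0.104 for the globins themselves. The nearest was Stat3, the gene of a signal transducer of cytokines, with a difference of 0.0471. Stat3 was at 42.0, 26.5 and 49.1 RPKM in OIR 1, 2 and 3, against 16.4, 17.9 and 13.6 RPKM in Control 1, 2 and 3, which places OIR 2 lowest and OIR 3 highest among the OIR libraries, as in the globins. Jak3 (0.0698), Rnf207 (0.0779), Angptl2 (0.0866), Slc25a37 (0.0867), Antxr2 (0.0934), Pbxip1 (0.0935) and Tnfrsf1a (0.1004) followed. Of these, Jak3 and Tnfrsf1a encode a cytokine-linked kinase and a tumour necrosis factor receptor, and Slc25a37 is the mitoferrin gene given above. The 8 genes were picked for this likeness, so their shared order over the OIR libraries follows largely from the choice. Since the measure was taken over 6 libraries in 2 groups, it describes these libraries only.

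**Figure D5:**
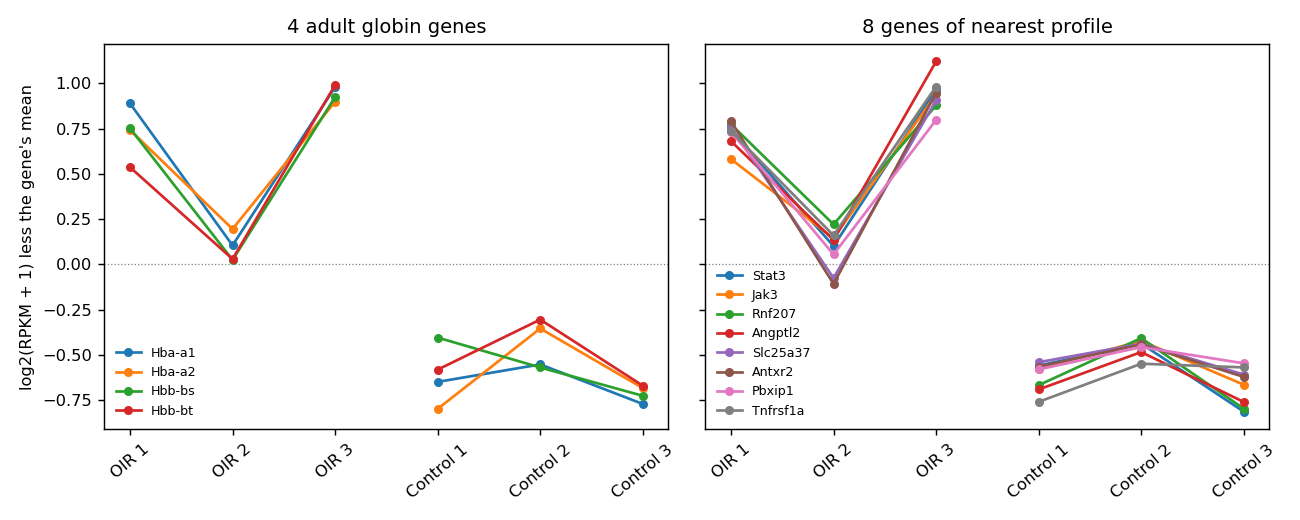
Log2(RPKM + 1) less each gene's mean over the 6 libraries, for the 4 adult globin genes and for the 8 genes of nearest profile, with OIR libraries left of Control libraries; lines only guide the eye, since libraries of a group have no order. All 12 genes are lowest in OIR 2 among the OIR libraries, which for the 8 follows largely from how they were picked.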

How the data were processed

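Groups and replicate numbers came from the sample titles. The authors deposited 1 RPKM value per gene symbol and library; the unit is not named in the file headers and was read from the values. The submitters' processing notes list Bowtie2 2.0.6 and TopHat2 2.0.12. No source used here gives the genome build, annotation, counting program or strand, and the library protocol in the labels describes another species. Libraries of unknown strand do not separate overlapping genes.

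Reads were recovered from the steps of the RPKM values, with 111 genes of known GENCODE M21 length setting the depth and a tolerance of 0.02 of a read, and a gene's length was the smallest that gave whole reads, so low counts could be off by a common factor. RPKM was tested with limma 3.58.1 in R 4.3.3 (trend and robust options) on log2(RPKM + 1), group as the only term, 4 residual degrees of freedom, two-sided, with Benjamini-Hochberg adjustment over all tested genes. RPKM are not counts, so no count test was the main one. On simulated data for OIR against Control with 11961 genes, it recovered 87% of 100 genes changed 1.5-fold and 100% of 100 changed 2-fold, and called 14 of 11761 unchanged genes. The simulation gave every gene the same spread beyond counting error. That spread was smaller than that of the globins in OIR, where Hbb-bs was at 76.0 ± 23.1 RPKM (SD). These recovery rates therefore need not hold for the globins or other genes of wide spread. Counting intervals are exact (Poisson or binomial) or Wilson, at 95%. The members and lists were chosen with earlier results of these data known. By rule, genes named beyond the 7 were up to 5 called genes per list, or otherwise 2 tested genes of highest level, and the 8 of nearest profile; others were chosen after their values were seen, and the text says so. Alternatives were median-of-ratios scaling, a pseudocount of 0.1, no filter, a replicate block, each library left out, the lens-rich library of each group left out and, added after seeing the data, limma-voom on recovered reads. Results of some genes on the lists are not reported here.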

Additional observations from a re-analysis of the deposited data

How the results depend on the processing

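The log2 fold changes of the 4 adult globins stayed above 0 under every alternative run. With the replicate number as a block their values were unchanged at 1.32 for Hba-a1, 1.22 for Hba-a2, 1.13 for Hbb-bs and 1.04 for Hbb-bt, but none passed, at adjusted p of 0.0926, 0.0667, 0.0970 and 0.161. The numbers share no stated source, and deviations of same-numbered libraries from their group means correlated at 0.22, -0.44 and -0.41. The highest correlation, 0.49, was between OIR 2 and Control 3, the libraries of most lens RNA in their groups. With 3 libraries per group and such differences in lens RNA, these correlations cannot decide whether the numbers pair the libraries. With limma-voom Hbb-bs was at 1.15 and did not pass (adjusted p 0.0556). With single libraries left out, values ran from 1.16 to 1.59 for Hba-a1, 1.08 to 1.43 for Hba-a2, 0.96 to 1.41 for Hbb-bs and 0.80 to 1.28 for Hbb-bt. Alas2, Slc4a1 and Ahsp passed under none of the alternatives. The summed globin level moved by less than its spread, with ratios of 2.13 to 2.84 when single libraries were left out. Lower genes numbered 1313 with median-of-ratios scaling, 529 with no filter and 1877 without both lens-rich libraries. Leaving out single libraries gave 410 to 1645 higher and 198 to 1281 lower genes, and 1 to 11 higher and 0 to 5 lower red cell genes. Of the red cell genes 0 were lower with no filter and 6 without both lens-rich libraries. With median-of-ratios scaling 1281 genes were higher, so the share of higher calls fell. Depth limits Slc4a1 and Ahsp, and 3 libraries per group limit every call. The cause of these shifts was not tested.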
